A study of Homo sapiens with 23 samples.

Results

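The CYP4 gene cluster on chromosome 1 (1p33) holds 6 genes of the cytochrome P450 family 4 side by side: CYP4B1, CYP4Z2P, CYP4A11, CYP4X1, CYP4Z1 and CYP4A22. They are 6 of the 60605 rows of a table of PRO-seq counts per gene, found by Ensembl identifier through GENCODE v44. The cluster was chosen by measured values of these libraries, because CYP4B1 rose stepwise to 24 h after TRPS1 was degraded, and the question was whether its 5 neighbours moved with it. The values of CYP4B1 are therefore given as a description, without a test, and the tests concern the neighbours.

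PRO-seq (precision run-on sequencing) counts RNA polymerases that are engaged in transcription, so a count reports transcription of a gene and not its stored mRNA. The cells were T47D, a luminal breast cancer line that expresses the estrogen receptor, and all libraries came from 1 clone (Clone 28) in which a degron tag was placed on TRPS1 at its own locus. TRPS1 is a GATA-family factor that represses transcription. Per the study's methods, some copies of TRPS1 in each clone were knocked out, so that the tagged protein was the form expressed, in control and treated cells alike. Controls received 0.1% DMSO for 24 h (n = 4). Treated cells received dTAG-13 with dTAG-V-1 (both at 50 nM and together called dTAG), which bring ubiquitin ligases to the tag, for 0.5, 1, 2 or 4 h (n = 4 each) or 24 h (n = 3, replicates 2, 3 and 4). Dishes with the same replicate number were collected together, at different times of 1 day for the different numbers, so p-values measure the spread between harvests of 1 clone.

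Enzymes of the CYP4 family are microsomal monooxygenases that hydroxylate fatty acids at or near the end of the chain. They take electrons from cytochrome P450 reductase, and several are induced in liver by the fatty acid receptor PPARα. CYP4B1 is mainly an extrahepatic enzyme that also activates some toxins, such as ipomeanol in lung. CYP4Z1 is known as a mammary gland enzyme that is often overexpressed in breast carcinoma, and CYP4Z2P is a transcribed pseudogene closely related to it. CYP4X1 is a less studied member found in brain, and CYP4A11 and CYP4A22 are liver and kidney fatty acid hydroxylases.

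In the hg38 annotation the cluster spans chr1:46757838-47149727, 391890 bp, and its genes lie on both strands. CYP4B1 (ENSG00000142973) occupies chr1:46757838-46819413 on the plus strand. CYP4Z2P (ENSG00000154198) follows at chr1:46843178-46900434 on the minus strand, so it is transcribed toward CYP4B1. CYP4A11 (ENSG00000187048) lies at chr1:46929177-46941484, also on the minus strand. CYP4X1 (ENSG00000186377, chr1:47023669-47050751), CYP4Z1 (ENSG00000186160, chr1:47067231-47118318) and CYP4A22 (ENSG00000162365, chr1:47137435-47149727) are on the plus strand. The antisense gene CYP4A22-AS1 runs on the minus strand across 42.4% of CYP4Z1 and all of CYP4A22.

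TRPS1 binds GATA motifs, so the 250 bases before the start sites of the transcribed members are shown, with every GATA match in capitals. The letters searched, on both strands, were AGATAA with its variant AGATAG, and likewise TGATAA with its variant TGATAG. The sequences are those of RefSeq on GRCh38.p14, plus strand, 5′ to 3′, and the table held windows for 3 of the 6 members.
CYP4B1, chr1:46798796-46799045: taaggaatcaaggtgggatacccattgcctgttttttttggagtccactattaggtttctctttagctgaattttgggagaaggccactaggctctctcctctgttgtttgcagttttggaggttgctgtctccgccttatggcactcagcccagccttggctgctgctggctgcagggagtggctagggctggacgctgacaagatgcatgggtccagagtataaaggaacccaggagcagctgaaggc
CYP4X1, chr1:47023419-47023668: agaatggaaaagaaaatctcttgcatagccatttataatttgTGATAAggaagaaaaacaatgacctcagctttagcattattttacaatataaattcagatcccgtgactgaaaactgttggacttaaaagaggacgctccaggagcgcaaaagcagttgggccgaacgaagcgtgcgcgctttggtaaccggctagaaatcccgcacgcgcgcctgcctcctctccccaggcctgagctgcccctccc
CYP4Z1, chr1:47066981-47067230: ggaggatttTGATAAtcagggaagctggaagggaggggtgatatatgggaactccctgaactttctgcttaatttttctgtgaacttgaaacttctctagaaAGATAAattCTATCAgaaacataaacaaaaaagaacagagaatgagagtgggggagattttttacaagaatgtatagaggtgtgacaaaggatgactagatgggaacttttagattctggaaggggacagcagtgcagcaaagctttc
The window of CYP4B1 held 0 matches, that of CYP4X1 held 1, and that of CYP4Z1 held 3, of which the third reads TGATAG on the minus strand. Of all 35116 promoter windows of this length, 22.3% held at least 1 match. The letters AGGTCA, the core of the estrogen receptor's motif, were in the CYP4X1 window once, in 12.1% of all windows, and not in the windows of CYP4B1 and CYP4Z1. The RefSeq start of CYP4B1 lies 41208 bp inside the GENCODE span of the gene, and a second CYP4X1 window, at an upstream start, held 0 matches of either kind. Gene lengths and distances given below use the GENCODE spans and starts. A match of letters is a description of the sequence, not a binding site.

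Of the 6 members, 4 passed the filter on low counts: CYP4B1, CYP4Z2P, CYP4X1 and CYP4Z1. Per kilobase of gene, the DMSO levels were 0.682 ± 0.067 CPM for CYP4X1, 0.612 ± 0.035 for CYP4Z2P, 0.232 ± 0.034 for CYP4Z1 and 0.193 ± 0.028 for CYP4B1 (CPM is the TMM-scaled read count per 1e+06 reads of a library, with SD and n = 4). The ranges of CYP4X1 and CYP4Z2P overlapped, as did those of CYP4Z1 and CYP4B1, whereas every library of the first pair lay above every library of the second. The lengths used are GENCODE spans, 61576 bp for CYP4B1, whose RefSeq start lies 41208 bp inside that span. Divided by the shorter length, CYP4B1 would stand higher, so this order of the members depends on the annotation. CYP4A11 and CYP4A22 stood at 0.0141 ± 0.0032 and 0.0120 ± 0.0100 CPM per kilobase. At 24 h of dTAG, on the same GENCODE spans, the order among the lower pair had turned. CYP4B1 held 0.329 ± 0.006 CPM per kilobase and CYP4Z1 0.275 ± 0.023 (n = 3), and their ranges no longer overlapped. This turn also depends on the annotation, and CYP4B1 was chosen for its rise.

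CYP4B1 is the member whose rise led to the choice of the cluster. Its DMSO libraries held 12.1, 14.1, 11.02 and 10.2 CPM (replicates 1 to 4), from 85, 103, 154 and 101 reads. At 0.5 h of dTAG the libraries held 12.5, 15.7, 15.3 and 14.3 CPM, which overlapped the DMSO range. At 1 h they held 14.2, 15.9, 17.1 and 16.1 CPM, and from here on every treated library was above every DMSO library, at 1 h narrowly. The 2 h libraries held 19.1, 18.9, 17.1 and 17.6 CPM. The 4 h libraries held 17.3, 18.6, 19.2 and 21.7 CPM, and the 24 h libraries (replicates 2 to 4) held 19.9, 20.2 and 20.7. The 3 values at 24 h were the closest together of any group, with an SD of 0.391 CPM against 1.71 in DMSO. In each of the 19 same-numbered pairs the treated library was above its DMSO library. Here and below, the 19 pairs reuse the same 4 DMSO libraries, so they are not independent comparisons.

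The fitted log2 fold change of CYP4B1 against DMSO was 0.30, 0.43, 0.62, 0.71 and 0.78 after 0.5, 1, 2, 4 and 24 h (95% interval for the last 0.58 to 0.99). These are the values that chose the gene. For reference only, a range wholly above the DMSO range was found for 2.58% of the 26057 genes tested after 0.5 h, 2.46% after 1 h, 2.65% after 2 h, 2.51% after 4 h and 5.22% after 24 h, where the treated group has 3 libraries. Because these are bulk samples, a rise in transcription per cell and a larger number of transcribing cells cannot be told apart.

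**Figure D1:**
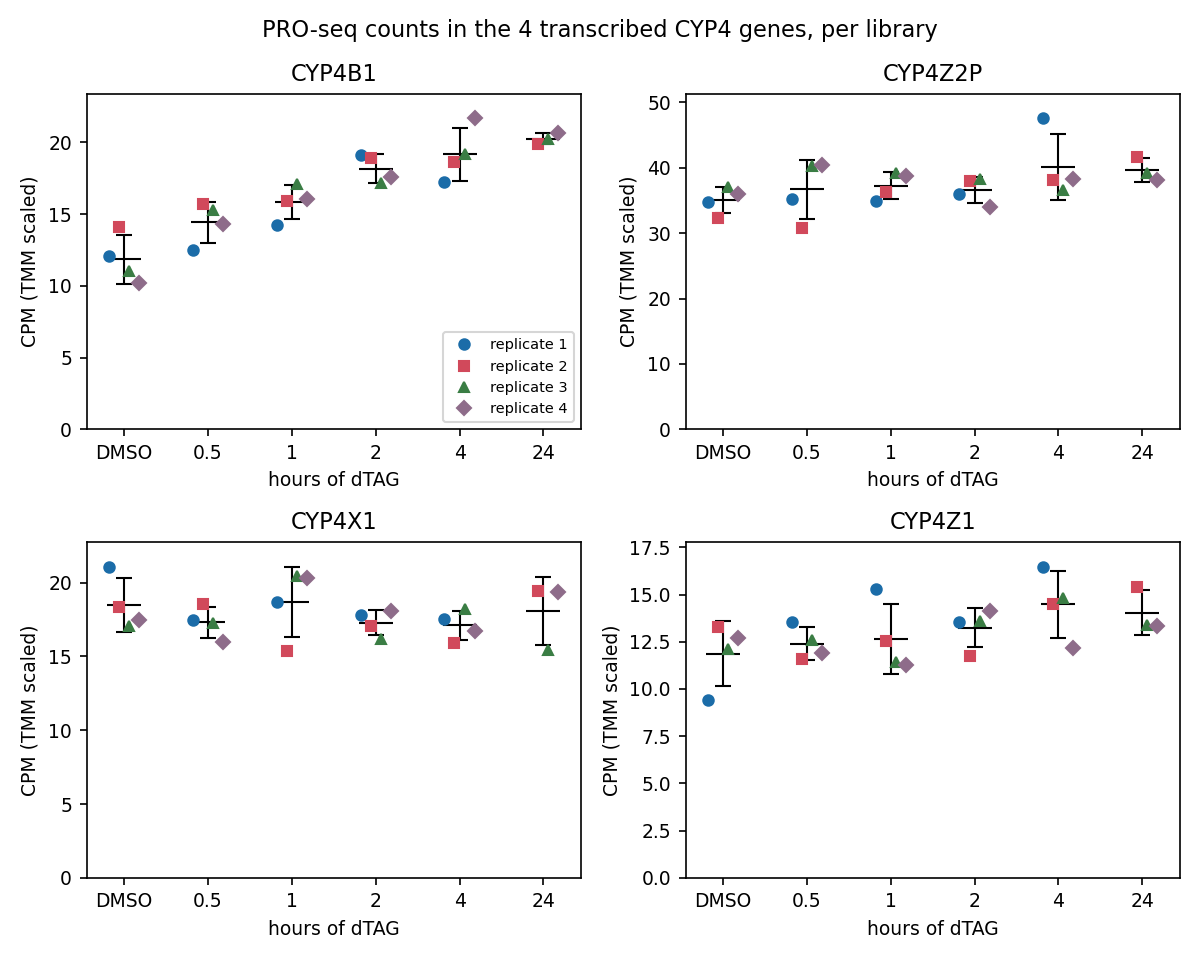
TMM-scaled CPM (y axis, from 0) of CYP4B1, CYP4Z2P, CYP4X1 and CYP4Z1 in DMSO and at each hour of dTAG (x axis, not to scale), 1 point per library with colour and shape by replicate, and black bars for mean and SD. CYP4B1 climbs from between 10.2 and 14.1 CPM in DMSO to between 19.9 and 20.7 at 24 h, and CYP4X1 stays between 15.3 and 21.1 CPM in all libraries.

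None of the neighbours passed the test at any time point. By edgeR's quasi-likelihood test with Benjamini-Hochberg adjustment over all 26057 genes and a threshold of 0.1, 0 of the 3 neighbours that passed the filter were called at 0.5 h, where 0.476% of all genes were called. The count was 0 after 1 h as well (1.25% of all genes), after 2 h (0.733%), after 4 h (0.833%) and after 24 h (0.863%). The count was also 0 for the F-test over the whole time course (2.71% of all genes called) and for 24 h against 0.5 h (1.99%). At an unadjusted p under 0.05 the count was 2 at 4 h, CYP4Z2P and CYP4Z1, and 0 in the other comparisons. Of all 26057 genes, 2002, 2454, 1849, 1946 and 1922 had such a p at 0.5, 1, 2, 4 and 24 h. DESeq2 called 0 neighbours in all 7 comparisons, and 0 had an unadjusted p under 0.05 there. With the replicate number as a block the fit called 2.48%, 3.25%, 2.43%, 2.49% and 2.65% of all genes at 0.5, 1, 2, 4 and 24 h, 6.34% at 24 h against 0.5 h and 9.01% over the time course, and still 0 neighbours. In that fit an unadjusted p under 0.05 was reached by 1 neighbour at 4 h (CYP4Z1) and 1 at 24 h (CYP4Z2P). Of all 26057 genes, 2797 reached it at 4 h and 2828 at 24 h. With background shares this low, 0 of 3 genes is also what a list of 3 ordinary genes would mostly give, so the intervals below say more than the counts.

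CYP4Z2P, the transcribed pseudogene next to CYP4B1, had the most reads of the cluster, 164 to 710 per library. In DMSO it stood at 34.7, 32.4, 37.0 and 36.0 CPM. The 0.5, 1 and 2 h groups lay between 30.8 and 40.4 CPM and overlapped DMSO. At 4 h the libraries held 47.5, 38.1, 36.6 and 38.3 CPM, of which replicate 1, the shallowest library of the series with 4408544 counts, stood far above the others. At 24 h they held 41.7, 39.3 and 38.1 CPM, all above the DMSO range. The log2 fold change was 0.07, 0.09 and 0.06 after 0.5, 1 and 2 h. It was 0.18 at 4 h (SE 0.08, 95% interval 0.007 to 0.35) and 0.18 at 24 h (SE 0.09, 95% interval -0.01 to 0.36). The adjusted p was 0.641 at 4 h and 0.704 at 24 h by edgeR. With the replicate block the 95% interval was -0.007 to 0.32 at 4 h and 0.0007 to 0.34 at 24 h. Without replicate 1 the value at 4 h was 0.09, and without replicate 2 the value at 24 h was 0.11. Treated libraries were above their same-numbered DMSO library in 16 of 19 pairs.

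CYP4Z1, the breast-associated fatty acid hydroxylase, is the farthest of the transcribed members from CYP4B1, its start lying 309 kb downstream. Its DMSO libraries held 9.39, 13.3, 12.1 and 12.7 CPM, with replicate 1 the lowest. At 0.5, 1 and 2 h the libraries lay between 11.3 and 15.3 CPM and overlapped DMSO. The 4 h libraries held 16.5, 14.5, 14.8 and 12.2 CPM, and replicate 1 was the highest there. At 24 h the values were 15.4, 13.4 and 13.4 CPM, against a highest DMSO value of 13.3, so the ranges were separate by less than 0.1 CPM. On the log2 scale its change was 0.06, 0.08 and 0.15 after 0.5, 1 and 2 h. It was 0.27 at 4 h (SE 0.11, 95% interval 0.03 to 0.50) and 0.23 at 24 h (SE 0.12, 95% interval -0.01 to 0.48). The adjusted p was 0.549 at 4 h and 0.711 at 24 h by edgeR. With the replicate block the 95% interval was 0.02 to 0.48 at 4 h and -0.0003 to 0.48 at 24 h. Without replicate 1 the values fell to 0.12 at 4 h and 0.14 at 24 h. Of the 19 same-numbered pairs, 12 had the treated library higher and 7 lower.

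Because 2 of the 3 tested neighbours, CYP4Z2P and CYP4Z1, had 24 h libraries wholly above DMSO, the background share of 5.22% for such separation at 24 h applies, but these genes are not independent measurements. They share much of their sequence: 47.1% of the 40-base words of CYP4Z1 also occur in CYP4Z2P, and 42.1% of those of CYP4Z2P occur in CYP4Z1. Reads from these stretches could have been assigned to either gene. CYP4B1 shared 1.61% of its words with any other member and CYP4X1 0.0074%, so few of their reads could be shared. With both CYP4Z rows added into 1, chosen after the data were seen, the sums ranged from 44.1 to 49.1 CPM in DMSO, from 50.4 to 64.0 at 4 h and from 51.5 to 57.1 at 24 h. Here the groups at 4 h and at 24 h were both wholly above DMSO. The log2 fold change of the sum was 0.21 at 4 h (SE 0.07, 95% interval 0.06 to 0.35) and 0.19 at 24 h (SE 0.07, 95% interval 0.04 to 0.35). Neither passed the threshold, with an edgeR adjusted p of 0.315 at 4 h and 0.458 at 24 h, and 0.226 and 0.232 with the replicate block.

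**Figure D2:**
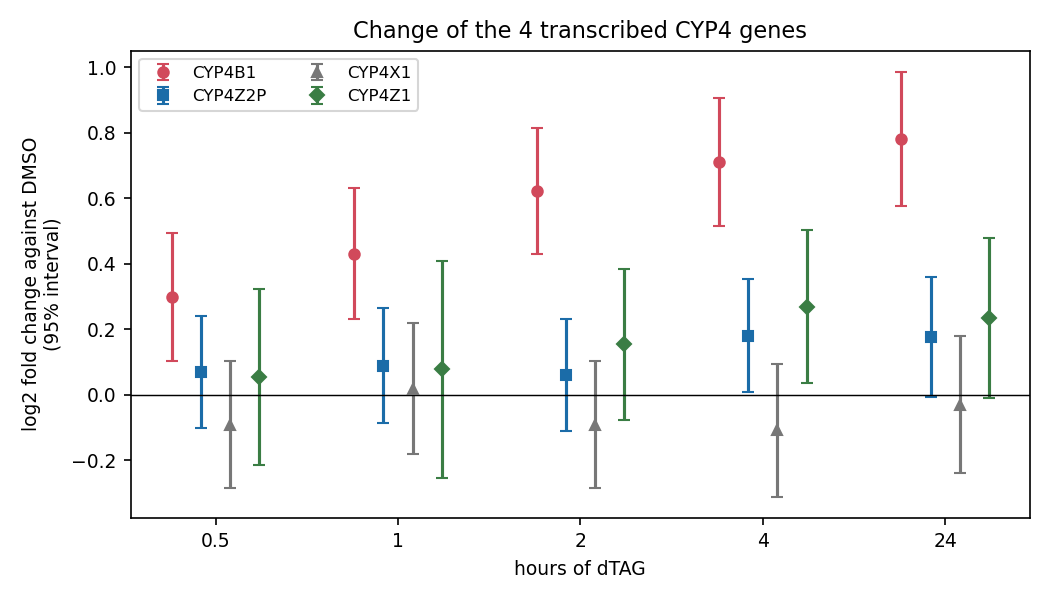
Log2 fold change against DMSO (y axis) with 95% interval for the 4 transcribed CYP4 genes at each hour of dTAG (x axis, not to scale), from the edgeR fit of 23 libraries. CYP4B1 goes from 0.30 to 0.78, the CYP4Z genes reach 0.18 and 0.23 at 24 h, and CYP4X1 lies at or near 0 throughout.

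CYP4X1 lay within its DMSO range in most treated libraries. Its DMSO libraries held 21.1, 18.4, 17.0 and 17.4 CPM. Treated libraries ranged from 15.3 to 20.4 CPM up to 4 h, and the 24 h libraries held 19.5, 15.4 and 19.4. The groups overlapped at every time. The log2 fold change was -0.09, 0.02, -0.09, -0.11 and -0.03 at 0.5, 1, 2, 4 and 24 h, and the interval at 24 h ran from -0.24 to 0.18 (adjusted p = 1.00 by edgeR). Same-numbered pairs were split, with 8 higher and 11 lower than DMSO.

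The liver genes CYP4A11 and CYP4A22 were barely transcribed in these cells. CYP4A11 had 48 reads in all 23 libraries together and 0 in 3 of them, and CYP4A22 had 45 reads and 0 in 5 libraries. In summed reads, CYP4A11 went from 7 of 38092119 in DMSO (exact 95% Poisson interval 2.81 to 14.4 reads) to 6 of 39763223 at 24 h (2.20 to 13.1). CYP4A22 went from 6 reads (2.20 to 13.1) to 10 (4.80 to 18.4). The intervals, which cover counting error only, overlap widely. Without the filter on low counts the fitted log2 change at 24 h was -0.29 for CYP4A11 (95% interval -1.86 to 1.28) and 0.66 for CYP4A22 (-1.16 to 2.48). Changes within these wide intervals were not detectable at this depth. They share 36.0% of their 40-base words with each other, and every CYP4A22 position is also covered by CYP4A22-AS1 on the other strand.

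As a share of all reads in the 6 genes, CYP4B1 took 15.3% ± 2.1 in DMSO (SD, n = 4), 17.8% ± 1.9 after 0.5 h, 18.7% ± 1.2 after 1 h, 21.2% ± 1.0 after 2 h, 21.1% ± 2.8 after 4 h and 21.9% ± 1.2 after 24 h (n = 3). The other 5 members together stood at 65.7 ± 1.1 CPM in DMSO and 72.2 ± 4.3 at 24 h. The share of CYP4B1 ran from 13.3% to 18.0% in DMSO and from 20.6% to 22.8% at 24 h, which do not overlap. As CYP4B1 was chosen for its rise, this is a description only. The summed level of the other 5 members was also wholly above its DMSO range of 64.2 to 66.6 CPM at 2 h (66.9 to 68.3), at 4 h (67.6 to 82.1) and at 24 h (68.4 to 76.8), though not at 0.5 and 1 h. For single genes, a range wholly above DMSO was found in 2.65%, 2.51% and 5.22% of those tested at 2, 4 and 24 h. Most of the sum of the other members is CYP4Z2P, and the sum itself was not tested.

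The antisense gene CYP4A22-AS1 was the only other gene over the cluster that passed the filter, 1 of 7 in the table. Its DMSO libraries held 10.4, 8.64, 10.1 and 11.4 CPM and its 24 h libraries 11.1, 12.4 and 12.2, which overlap. The log2 fold change at 24 h was 0.24 (95% interval -0.01 to 0.48, edgeR adjusted p = 0.704). Its values matter for CYP4Z1, since without strand the reads of both would be mixed where they overlap. Strand appears to have been kept in the counting: among 2357 genes nested in an expressed gene of the other strand, the median count was 0.0566 of what counting without strand would have given.

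Outside the span, 54 genes of the table have their start within 1 Mb, and 28 passed the filter. At 24 h 1 was called higher and 1 lower, where 0.863% of all genes were called, with a median log2 fold change of 0.02 over the 28 and 0.00 over all genes tested. At each of 0.5, 1, 2 and 4 h edgeR called 0 of the 28, where 0.476% to 1.25% of all genes were called. Each time 3 of the 28 had an unadjusted p under 0.05. Of all 26057 genes, 1849 to 2454 had such a p at these times. DESeq2 called 1 of the 28, PIK3R3 at 0.5 h. At 24 h against 0.5 h 4 were called higher (FAAHP1, and PIK3R3, P3R3URF-PIK3R3 and ENSG00000227857, these 3 with overlapping spans) and 1, STIL, lower, where 1.99% of all genes were called. PIK3R3, a regulatory subunit of PI3 kinase, held 101 ± 3 CPM in DMSO, 89.0 ± 4.6 at 0.5 h and 110 ± 3 at 24 h, and with the replicate block it was called lower than DMSO at 0.5, 1 and 2 h, as was P3R3URF-PIK3R3. The block also called RAD54L, a gene of homologous recombination, lower at 4 h (log2 fold change -0.21, adjusted p = 0.0768 by edgeR) and at 24 h (-0.22, adjusted p = 0.0601), and lower at 24 h than at 0.5 h, as DESeq2 did. Without the block its adjusted p was 0.405 at 4 h and 0.603 at 24 h (edgeR).

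FAAHP1, a pseudogene of the fatty acid amide hydrolase gene FAAH, lies 326 kb upstream of the CYP4B1 start (chr1:46432129-46445321) on the side away from the other CYP4 genes. It held 12.8, 11.9, 14.4 and 14.6 CPM in DMSO and 18.0, 17.9 and 19.5 at 24 h, which do not overlap. At 24 h it was 0.45 higher on the log2 scale (SE 0.08, edgeR adjusted p = 0.00998). The parent gene FAAH, next to it, had a fold change of 0.03 (95% interval -0.21 to 0.27), and how reads were divided between these similar genes is uncertain. Leaving out replicate 2, 3 or 4, the replicates of the 24 h group, raised the adjusted p of FAAHP1 to 0.105, 0.124 and 0.210 by edgeR, past the threshold. The call held by edgeR without replicate 1 (0.0602) and with the replicate block (0.00219), and by DESeq2 (0.00809). It also held by edgeR with library totals only (0.0500) and without the low-count filter (0.0359).

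STIL, a gene needed for centriole assembly, lies beyond the other end of the cluster (chr1:47250139-47314892). Its libraries held 72.6, 66.9, 74.8 and 69.9 CPM in DMSO and 56.0, 61.2 and 62.2 at 24 h, so that all 24 h libraries were below DMSO. It fell by 0.25 on the log2 scale (SE 0.06, edgeR adjusted p = 0.0762). That call was lost without replicate 2, 3 or 4 (edgeR adjusted p 0.531, 0.663 and 0.422), which are the replicates of the 24 h group. It was also lost with library totals only (0.703) and without the low-count filter (0.413). The call held by edgeR with median-of-ratios size factors (0.0601), without replicate 1 (0.0604) and with the replicate block (0.00130), and by DESeq2 (0.00908). Between FAAHP1 and CYP4B1, EFCAB14, whose start is 38.7 kb from that of CYP4B1, had a log2 fold change at 24 h of 0.06 (95% interval -0.06 to 0.18). ATPAF1 had one of 0.02 (-0.15 to 0.18) and MKNK1 one of 0.10 (-0.02 to 0.22). MOB3C had 0.30 (-0.02 to 0.62) and NENFP1 0.41 (-0.62 to 1.43). The values of TEX38 and DMBX1 were -0.03 (-0.86 to 0.80) and -0.13 (-0.44 to 0.18). None of the genes in this stretch was called.

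**Figure D3:**
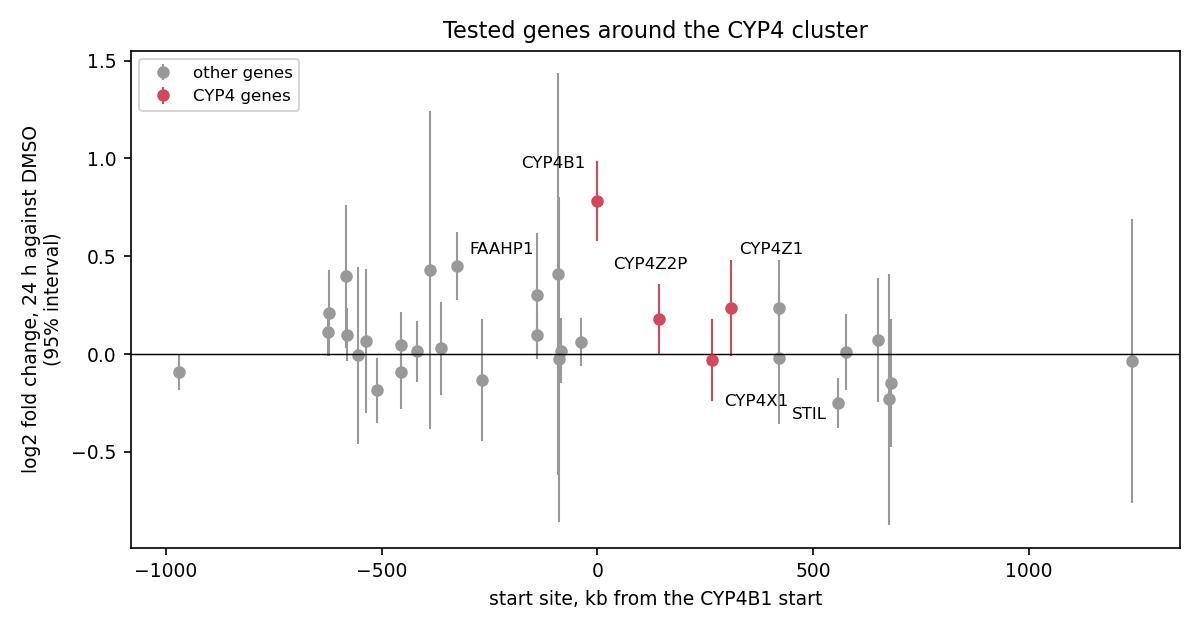
Log2 fold change at 24 h against DMSO (y axis) with 95% interval for the genes around the CYP4 cluster that passed the filter, by distance of their start from the CYP4B1 start in kb (x axis), with the 4 CYP4 genes in red. CYP4B1, which was chosen for its rise, stands above the other genes at 0.78. FAAHP1 at 0.45 and STIL at -0.25 are the called ones outside the cluster, and long bars belong to genes with few reads.

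Other CYP4 genes lie elsewhere in the genome, and of the 7 looked at (CYP4F2, CYP4F3, CYP4F8, CYP4F11, CYP4F12, CYP4F22 and CYP4V2) only CYP4V2 and CYP4F22 passed the filter. By edgeR and by DESeq2 0 of these 2 were called in any of the 7 comparisons, where edgeR called 0.476% to 2.71% of all genes. By edgeR 1, CYP4F22, had an unadjusted p under 0.05 at 0.5 h and at 24 h, as had 2002 and 1922 of all 26057 genes. CYP4F22, an enzyme for very long fatty acids in skin, went from 3.73 ± 0.87 CPM in DMSO to 5.30 ± 0.30 at 24 h, a log2 fold change of 0.51 (95% interval 0.14 to 0.88, edgeR adjusted p = 0.369). CYP4V2, linked to a retinal dystrophy, stood at 10.2 ± 2.2 CPM in DMSO and 9.74 ± 0.95 at 24 h. At 1 h a single library of CYP4V2 held 49.7 CPM while the lowest of that group held 8.00.

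The genes that pass electrons to CYP4 enzymes were taken as another list. Over the 7 comparisons edgeR called 0.476% to 2.71% of all genes, so 0 called of a list of 3 says little. Of POR (cytochrome P450 reductase), CYB5A (cytochrome b5) and CYB5R3 (cytochrome b5 reductase), all 3 passed the filter and 0 were called at any time by edgeR or DESeq2. CYB5A had an unadjusted p under 0.05 at 0.5 h by edgeR, where its log2 fold change was -0.22. Such a p was also reached by 1 of the 3 at 24 h against 0.5 h and by 1 over the time course. POR held 103 ± 7 CPM in DMSO and 98.6 ± 3.9 at 24 h. The median log2 fold change of the 3 at 24 h was 0.01.

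PPARA and 10 of its known targets in fatty acid oxidation were taken as a further list, of which 10 of 11 genes passed the filter. By edgeR 0 of the 10 were called against DMSO, where 0.476% to 1.25% of all genes were called. An unadjusted p under 0.05 was reached by 1, 1, 2, 0 and 0 of them at 0.5, 1, 2, 4 and 24 h. Of all 26057 genes, 1849 to 2454 had such a p at these times. DESeq2 called 1 of the 10 (CPT1A, lower at 0.5 h). The median log2 fold change at 24 h was 0.03. CPT1A, which admits fatty acids to mitochondria and had the most reads of the list, was called in the comparison of 24 h with 0.5 h, with a log2 difference of 0.21 (SE 0.05, edgeR adjusted p = 0.0336), and over the time course. It held 185 ± 10 CPM in DMSO, 166 ± 7 at 0.5 h and 193 ± 6 at 24 h. EHHADH, an enzyme of peroxisomal oxidation, differed from DMSO by 0.03 on the log2 scale at 24 h. In the fit with the replicate block CPT1A was also called at 0.5 h (lower), PDK4 was called at 24 h against 0.5 h, and ACAA1 was called over the time course, as it was by DESeq2.

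The pattern of CYP4B1 over the 23 libraries was most alike, by Pearson's r of log2 CPM, to genes outside the cluster. Of 14144 genes with at least 100 counts on average the first 5 were ABCA4 (a retinal lipid transporter, r = 0.887), C1QTNF6 (a secreted C1q-related protein, 0.854), ZNF692 (a zinc finger gene, 0.849), B4GALNT3 (a glycosyltransferase, 0.839) and VCAN (the matrix proteoglycan versican, 0.833). Without the 2 libraries farthest from the median of CYP4B1 these became 0.852, 0.743, 0.846, 0.818 and 0.720. Spearman's rho ranged from 0.784 for C1QTNF6 to 0.875 for B4GALNT3. All 5 stood above their DMSO level at each time, ABCA4 for example by 0.16 on the log2 scale at 0.5 h and 0.61 at 4 h. They were picked for likeness to a gene chosen for its rise, so their own rise follows largely from that choice. The libraries share their controls, harvests and scaling, so these values describe likeness and carry no test.

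The neighbours ranked below those genes in the same list, but those genes were picked as its top. CYP4Z1 had r = 0.338 with CYP4B1 (rank 1425 of 14144), CYP4Z2P 0.330 (rank 1513) and CYP4X1 -0.101 (rank 9643). Both CYP4Z genes were thus more like CYP4B1 than most genes compared, and CYP4X1 was less like it than most. The CYP4Z genes share much of their sequence, so their ranks are not independent, and the ranks carry no test. Once each group's mean was taken off, the r with CYP4B1 over the 23 libraries was -0.494 for CYP4Z1, -0.285 for CYP4Z2P and 0.193 for CYP4X1. At 0.5, 1 and 4 h, replicate 1 was the lowest library of its group in CYP4B1 and the highest in CYP4Z1.

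**Figure D4:**
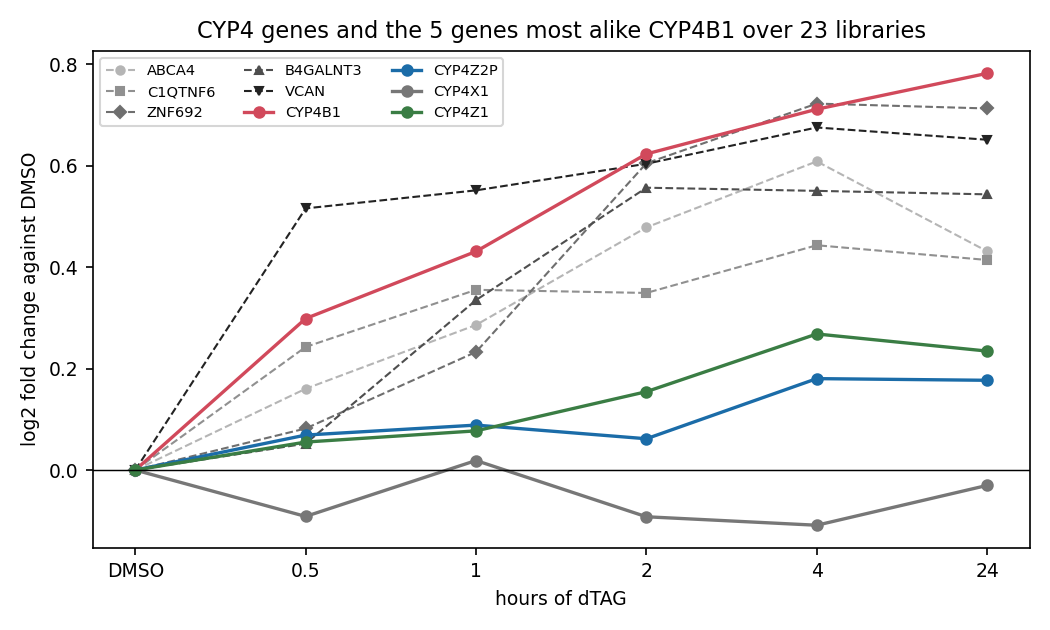
Log2 fold change against DMSO (y axis, DMSO at 0) at each hour of dTAG (x axis, not to scale) for CYP4B1 (red), its 3 transcribed neighbours (other solid lines) and the 5 genes most alike to CYP4B1 over the 23 libraries (dashed grey lines). CYP4B1 reaches 0.78 and the 5 genes lie between 0.41 and 0.71 at 24 h, whereas the neighbours lie between -0.03 and 0.23. CYP4B1 was chosen for its rise and the 5 genes for their likeness to it, so their place above the neighbours follows largely from the choice.

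Facts of the whole series that bear on these values were as follows. Library totals ranged from 4408544 to 17571616 counts with a median of 9768427, and replicates differed by more than sampling noise (chi-square per degree of freedom 1.63 to 40.6 over 33 pairs). TRPS1 itself was transcribed at 7997 to 10157 CPM in DMSO and 8928 to 11979 CPM under dTAG, and it was called higher at all 5 times with the replicate block but at none without it (edgeR), and DESeq2 called it at 24 h. The tag acts on the protein, so this row does not check its loss. Markers of luminal cells (ESR1, GATA3, FOXA1, KRT8, KRT18, KRT19 and TFF1) summed to 3867 to 4428 CPM and those of basal cells (TP63, ACTA2, KRT5, KRT14 and KRT17) to 29.1 to 40.6. Those of fibroblasts (3 genes) summed to 9.90 to 15.4, of immune cells (3 genes) to 10.9 to 18.2 and of hepatocytes (3 genes) to 0.266 to 1.51, in all libraries, and each of these genes had reads. The luminal sum was 4143 to 4428 CPM in DMSO and lower at 0.5 h (3943 to 4081) and at 1 h (3901 to 4075), without overlap. The share of all genes wholly below DMSO was not computed. Most of the sum is ESR1, at 2527 ± 134 CPM in DMSO and 2452 ± 90 at 0.5 h, and GATA3, at 1090 ± 17 and 937 ± 24. Of the 7 markers edgeR called only GATA3 lower, at 0.5, 1, 2 and 4 h (log2 fold change -0.22 at 0.5 h, edgeR adjusted p = 0.00112). With the replicate block KRT19 was also called lower at 0.5, 1, 2 and 24 h, and KRT8 at 1 h. The basal sum went from 29.1 to 30.2 CPM in DMSO to 36.5 to 39.6 at 24 h. That difference lay in TP63, which was called higher from 1 h on and went from 19.8 ± 1.0 to 27.8 ± 1.5 CPM, while ACTA2 stood at 9.52 ± 0.51 and 9.56 ± 0.38 CPM and the 3 keratin genes at or under 0.178 CPM on average in both groups. The part of these markers in the values of the CYP4 genes was not tested.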

How the data were processed

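The authors deposited raw counts of PRO-seq reads per gene, not normalized, for 60605 Ensembl identifiers. Per the study's methods and the labels, adapters were removed with cutadapt 1.8.1, duplicates collapsed by molecular identifier, ribosomal reads discarded, the rest aligned to hg38 with Bowtie2 2.4.4 (SAMtools 1.9) and counted with bedtools. The annotation and strand setting are not given in the sources used here. Intervals on summed reads cover counting error only.

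Counts were fitted in R 4.3.3 with edgeR 4.0.16 (glmQLFit, glmQLFTest, TMM factors) over all 23 libraries and 6 groups. The filterByExpr step (minimum count 10, total 15) kept 26057 genes. The p-values are two-sided and carry a Benjamini-Hochberg adjustment across these genes, with the study's threshold of 0.1. Standard errors and intervals were derived from each p-value and its degrees of freedom. The script was tested on simulated data. Replicates were treated and collected at different times of 1 day per the treatment protocol in the labels, and deviations from group means correlated by 0.287 on average between same-numbered libraries (lowest of 55 pairs -0.060) and by -0.082 between others. The main fit held no block, since the methods name none. The common dispersion, edgeR's measure of spread, was 0.0249 in the main fit and 0.00489 with the replicate block.

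The members, lists and named genes were chosen with earlier results of these data known. Named were genes over the cluster, called genes within 1 Mb, 3 lists (CYP4 relatives, electron donors, PPARA and targets) and the 5 genes most correlated with CYP4B1. A further gene of the last list is not reported here, and the counts leave it out. Alternatives were median-of-ratios size factors, library totals, no filter, DESeq2 1.42.0, the replicate block, leaving out each replicate, and only the groups compared. The summed CYP4Z row was added after the data were seen. Spans came from GENCODE v44, which matched 60463 identifiers. A second CYP4Z2P identifier of that release has no row in the table used. Promoter windows came from RefSeq (GRCh38.p14).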

Additional observations from a re-analysis of the deposited data

Results flagged for a closer look

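CYP4Z2P at 4 h of dTAG had 1 library far from the rest of its group: replicate 1 held 47.5 CPM, from 179 reads, while the others lay between 36.6 and 38.3. It was the only such library among 30 groups of 4 libraries examined over the 6 genes, and chance alone flags about 1 in 20 groups. The library was also the shallowest of the series, and without replicate 1 the 4 h fold change of CYP4Z2P was 0.09 in place of 0.18 on the log2 scale.

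The changes at 24 h and at 0.5 h differed for 7 of the genes named for their place or list, by a direct contrast of both groups in edgeR. That contrast called 519 of all 26057 genes (1.99%). CPT1A was 1 of 10 tested genes of its list, GATA3 1 of 7 luminal markers, and the rest were among 28 tested genes within 1 Mb. As PIK3R3 and P3R3URF-PIK3R3 overlap, the 7 are not 7 separate results. FAAHP1 was 0.35 higher on the log2 scale at 24 h (adjusted p = 0.0428), STIL had a difference of -0.23 (adjusted p = 0.0825) and CPT1A one of 0.21 (adjusted p = 0.0336). The overlapping genes PIK3R3 and P3R3URF-PIK3R3 differed by 0.30 and 0.28 (adjusted p = 0.0144 and 0.0336), ENSG00000227857 by 0.40 (adjusted p = 0.0704) and the luminal marker GATA3 by 0.17 (adjusted p = 0.0131).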

How the results depend on the processing

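In all 69 recomputed counts, 0 neighbours of CYP4B1 were called, and the smallest adjusted p of a single neighbour was 0.388 (edgeR with the replicate block, CYP4Z1 at 4 h). The summed CYP4Z row, added later, had 0.315 at 4 h without the block and 0.226 with it. All 60 recomputed fold changes of CYP4B1 were above 0, from 0.23 at 0.5 h without replicate 3 to 0.89 at 24 h without replicate 2. CYP4B1 was chosen for its rise in these same libraries, so its refits are a description and no test. Of 180 recomputed fold changes of CYP4Z1, CYP4Z2P and CYP4X1, 171 kept their direction and 9 turned, none of them called. With library totals only, CYP4X1 turned to -0.0036 at 1 h and 0.0028 at 24 h. Leaving out each replicate gave CYP4X1 between -0.0706 and 0.107 at 1 h, -0.117 and 0.0373 at 24 h, and -0.0349 and 0.167 at 24 h against 0.5 h. It gave CYP4Z1 between -0.0719 and 0.139 at 0.5 h and between -0.107 and 0.159 at 1 h, the lowest without replicate 1 in both cases. The cause was not tested.

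The replicate block moved counts over all genes by over 1.5 times, from 124 to 645 at 0.5 h, 325 to 846 at 1 h, 191 to 634 at 2 h, 217 to 650 at 4 h, 225 to 691 at 24 h, 519 to 1653 at 24 h against 0.5 h and 706 to 2348 over the time course, and it changed no call of the 3 neighbours tested. At 24 h the other settings gave 110 with library totals, 126 without the filter, 344 with DESeq2, 106 with only DMSO and 24 h in the fit, and 38 to 233 without 1 replicate. The time course was not refitted with fewer groups, since it needs all of them. FAAHP1 was not called with only the groups compared (0.44, adjusted p = 0.136 by edgeR), nor was STIL (-0.26, adjusted p = 0.173). Depth limits what can be seen: CYP4B1, CYP4X1 and CYP4Z1 had between 61 and 366 reads per library.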
